A study of Mus musculus with 2 samples.

Results

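The STAT genes Stat2, Stat3, Stat4, Stat5a, Stat5b and Stat6 were followed in 2 libraries of stage 1 invariant natural killer T (iNKT) cells, an early step of a thymic T cell lineage with a semi-invariant receptor. The 6 genes were found by symbol in both genotype tables, out of 16386 genes in all. The Uhrf1 KO library came from thymic cells of C57BL/6 mice at 5 weeks of age that lacked Uhrf1, a protein that recruits Dnmt1 to freshly replicated DNA so that methylation is kept. The WT library came from wild-type mice of the same background, age and sorted stage. The sources used here do not say how Uhrf1 was deleted, which cells carried the deletion or how many mice were pooled. With 1 library per genotype, differences could not be tested against replicate error, and no p-values are given.

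STAT proteins are transcription factors that wait in the cytoplasm. A cytokine draws its receptor chains together, the JAK kinases bound to those chains phosphorylate them, and STATs dock there, are phosphorylated in turn, pair up and enter the nucleus. In T cells Stat2 joins Irf9 in the type I interferon response, Stat3 follows the receptors of IL-6, IL-10 and IL-21, Stat4 that of IL-12, Stat5a and Stat5b those of IL-2, IL-7 and IL-15, and Stat6 that of IL-4. SOCS proteins and Cish, themselves induced by STATs, close the loop. RNA levels say nothing of phosphorylation, which is what switches a STAT on.

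The stretches before a start of each gene are shown because Uhrf1 maintains methylation of the CpG pair. The members differ widely in how many such pairs they hold there. The stretches are the 250 bases upstream of the RefSeq start nearest to where the files begin the gene (for Stat4 at 52008244), on GRCm38.p6 (mm10). They are written 5′ to 3′ on the gene's strand with each CpG in capitals. For Stat5a the nearest start, 100859656, lies 305 bases downstream of 100859351, where the files begin the gene. Its window therefore lies within the gene as the files place it. Positions are chr10:128270248-128270497 (plus strand) for Stat2, chr11:100939541-100939790 (minus) for Stat3, chr1:52007990-52008239 (plus) for Stat4, chr11:100859406-100859655 (plus) for Stat5a, chr11:100850582-100850831 (minus) for Stat5b and chr10:127642736-127642985 (plus) for Stat6.
Stat2: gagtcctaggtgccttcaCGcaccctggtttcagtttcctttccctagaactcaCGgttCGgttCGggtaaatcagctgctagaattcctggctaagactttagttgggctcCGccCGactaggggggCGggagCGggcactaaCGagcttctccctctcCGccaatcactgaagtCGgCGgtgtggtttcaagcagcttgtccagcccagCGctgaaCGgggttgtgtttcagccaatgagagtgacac
Stat3: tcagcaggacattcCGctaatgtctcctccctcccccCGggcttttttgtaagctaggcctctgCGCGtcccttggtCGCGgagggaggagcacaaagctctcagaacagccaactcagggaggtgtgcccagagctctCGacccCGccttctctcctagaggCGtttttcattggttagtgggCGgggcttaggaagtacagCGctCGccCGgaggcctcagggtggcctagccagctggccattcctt
Stat4: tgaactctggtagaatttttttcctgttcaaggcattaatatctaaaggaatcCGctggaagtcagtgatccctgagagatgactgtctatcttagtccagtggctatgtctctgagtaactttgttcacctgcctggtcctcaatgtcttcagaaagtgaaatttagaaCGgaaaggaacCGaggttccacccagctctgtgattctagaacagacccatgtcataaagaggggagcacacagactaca
Stat5a: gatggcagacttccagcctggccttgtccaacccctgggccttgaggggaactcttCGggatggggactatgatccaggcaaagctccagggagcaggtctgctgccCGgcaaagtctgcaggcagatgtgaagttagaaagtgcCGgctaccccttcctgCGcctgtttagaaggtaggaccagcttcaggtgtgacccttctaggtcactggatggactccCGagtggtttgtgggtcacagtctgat
Stat5b: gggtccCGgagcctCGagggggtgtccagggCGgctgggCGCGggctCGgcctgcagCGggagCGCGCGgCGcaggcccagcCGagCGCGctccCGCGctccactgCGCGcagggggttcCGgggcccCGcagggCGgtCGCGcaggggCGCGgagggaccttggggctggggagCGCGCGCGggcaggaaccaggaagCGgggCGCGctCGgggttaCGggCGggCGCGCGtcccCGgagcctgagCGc
Stat6: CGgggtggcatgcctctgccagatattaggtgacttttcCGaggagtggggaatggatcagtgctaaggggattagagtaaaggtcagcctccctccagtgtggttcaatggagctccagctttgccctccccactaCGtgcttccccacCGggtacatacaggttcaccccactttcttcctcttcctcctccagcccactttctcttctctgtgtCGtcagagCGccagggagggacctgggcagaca

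The Stat5b window held 40 CpG pairs, the most of the members. Stat2 held 14 and Stat3 held 13, while Stat6 held 6, Stat5a 5 and Stat4 3. Over 32851 such windows of 27025 genes the median was 6, with quartiles of 2 and 16. The count depended on the start chosen, since another start of Stat5a held 21, another of Stat5b held 5 and another of Stat4, whose window is chr1:51986898-51987147, held 1. Methylation itself was not measured. By RefSeq's extents Stat3, Stat5a and Stat5b stand side by side on chromosome 11, from 100780731 to 100939594. These extents leave 346 bases between Stat5b and Stat5a and 1636 bases between Stat5a and Stat3. The extents of Stat4 and Stat5b begin much farther upstream than in the files. Stat5b, on the minus strand, begins at 100859004 in RefSeq and at 100850585 in the files, so by the files its gap to Stat5a is wider. The windows printed for Stat4 and Stat5b lie within these RefSeq extents. Stat4 (51987106 to 52107189) is on chromosome 1, and Stat2 (128270498 to 128292853) and Stat6 (127642955 to 127660987) are on chromosome 10.

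Reads over all genes numbered 12189861 in the Uhrf1 KO and 26005836 in WT. Levels are FPKM, fragments scaled to transcript length and library size, a unit in which genes of different length can be compared. Here "rose" and "fell" mean a log2((KO FPKM + 1) / (WT FPKM + 1)) of at least 1 in size for genes whose FPKM averaged at least 1, called measured. The added 1 understates the change of low genes. Of 9955 genes measured, 21.3% rose and 23.6% fell. Uhrf1 fell to 0.626 FPKM in the KO on 25 reads, against 35.3 in WT on 3032 reads. T cell genes such as Cd3e were abundant in both libraries (271 FPKM in the KO, 240 in WT). Of 9 T cell markers 3 rose and 1 fell, with a summed FPKM of 5053 in the KO and 3541 in WT. Those that rose were Cd2 (826 in the KO, 147 in WT), Cd5 and Lck, and Zap70 fell (110 in the KO, 328 in WT). The lineage factor gene Zbtb16 was present in both but fell (41.9 in the KO, 114 in WT). Of 10 early iNKT markers, Zbtb16 among them, 7 fell and 1 rose, with a summed FPKM of 451 in the KO and 1105 in WT. Of 12 naive T cell markers 8 rose and 1 fell, with a summed FPKM of 2384 in the KO and 791 in WT. Of 5 measured gamma-delta T cell markers 4 fell and none rose, and the 6 found summed to 7.17 FPKM in the KO and 177 in WT. Of 8 measured myeloid markers 6 rose and 2 fell, and those found summed to 3094 FPKM in the KO and 509 in WT, with Flt3 and Itgax at 0 in both. Apoe alone had 2676 FPKM in the KO and 246 in WT. The 2 that fell were S100a8, with 0 reads in the KO and 86.4 FPKM in WT, and S100a9, with 0.908 FPKM in the KO and 95.6 in WT. Of 7 B cell markers found 1 was measured, Cd79b, with 14.8 FPKM in the KO and 17.4 in WT. Cd79a had 11 reads in the KO and 0 in WT, and Blnk, Ebf1, Ms4a1 and Pax5 were at 0 in both. Of 3 measured NK cell markers 1 rose and 2 fell, and those found summed to 3.89 FPKM in the KO and 51.3 in WT. Of 6 measured erythroid markers 5 rose and none fell, and of 5 measured thymic stromal markers 4 rose and none fell. Erythroid markers summed to 1351 in the KO and 326 in WT, with Klf1 and Slc4a1 at 0 in both, and thymic stromal markers to 98.5 in the KO and 28.6 in WT, with Krt8 and Pdgfra at 0 in both. The part of these cell types in the results below was not tested. In a bulk library fewer cells of a type and less RNA per cell cannot be told apart.

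Among the 6 STAT genes Stat4 and Stat5a rose in the KO, Stat3 and Stat5b were nearly 2 times as high but short of the threshold, and Stat2 and Stat6 were close in the 2 libraries. By the size rule 2 of 6 STAT genes rose (33.3%) and none fell, beside 21.3% and 23.6% of all genes measured. The median log2 ratio of the STAT genes was 0.93, against -0.0048 over all genes measured, and 5 of the 6 were above 0, or 4 of the 6 once the KO was rescaled to the upper quartile, where Stat2 turned to -0.09. Fold changes below are ratios of the scaled counts, KO over WT, with a 95% exact (Clopper-Pearson) interval. The interval covers counting error only, since each genotype had 1 library. Amplified reads were not collapsed to single molecules by any identifier named in the sources, so it may be too narrow even for that error.

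**Figure D1:**
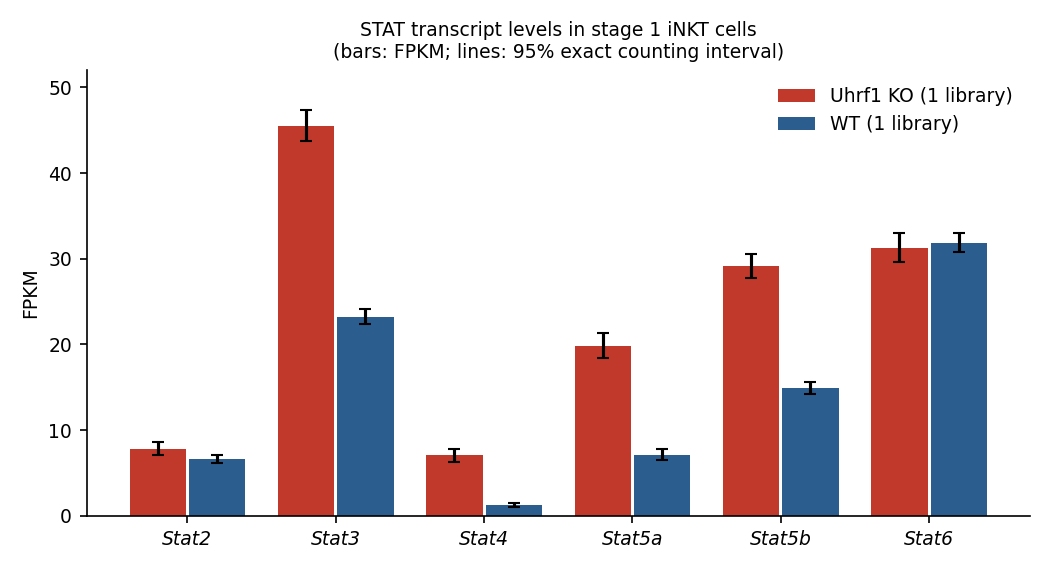
FPKM of the 6 STAT genes in the Uhrf1 KO library (red, left of each pair) and the WT library (blue, right), with lines for the 95% exact counting interval and no replicate error. The bars for Stat3, Stat4, Stat5a and Stat5b are higher in the KO, while those for Stat6 are 31.3 in the KO and 31.9 in WT.

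Stat4, which carries the IL-12 signal, had 7.03 FPKM in the KO library on 338 reads and 1.21 FPKM in the WT library on 125 reads. That is 5.77 times as much in the KO (interval 4.68 to 7.14), the largest ratio among the members, with a log2 ratio of 1.86. Of all genes measured 9.8% had a log2 ratio as high or higher. Stat4 was the least abundant member in both libraries. With 5 in place of 1 added to each FPKM its log2 ratio was 0.95, short of the threshold.

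Stat5a had 19.8 FPKM in the KO on 684 reads, against 7.12 FPKM in WT on 547 reads. The fold was 2.67 (interval 2.38 to 2.99) and the log2 ratio 1.36, and 15.7% of genes measured were as high or higher. Its close paralog Stat5b had 29.1 FPKM in the KO on 1614 reads, against 14.9 FPKM in WT on 1827 reads, a fold of 1.88 (interval 1.76 to 2.02) and a log2 ratio of 0.92. Stat5b was the higher of the pair in both libraries, at 1.47 times Stat5a in the KO and 2.09 times in WT. Summed, the pair had 48.95 FPKM in the KO and 22.0 in WT, 2.22 times as much in the KO. The genes are close copies, so reads may have been split between them in a way the files do not record.

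Stat3 had 45.5 FPKM in the KO on 2508 reads and 23.2 FPKM in WT on 2841 reads. The fold was 1.88 (interval 1.78 to 1.99) with a log2 ratio of 0.94, just below the threshold of 1, and 22.4% of genes measured were as high or higher. Stat3 and Stat5b therefore stood just outside the rule, while Stat5a, at 1.36, passed it. The 3 neighbours on chromosome 11 were all higher in the KO.

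Stat6, the IL-4 arm, had 31.3 FPKM in the KO on 1370 reads, against 31.9 FPKM in WT on 3124 reads. Its log2 ratio was -0.03 and its scaled count fold 0.936 (interval 0.877 to 0.997). The files give Stat6 the same locus as Nab2, a corepressor of Egr factors, and Nab2 had 17.1 FPKM in the KO and 73.0 in WT. The sources used here do not say whether reads were counted by strand, so those of this pair may not have been told apart. Stat2, the partner of Irf9, had 7.76 FPKM in the KO on 417 reads and 6.64 in WT on 789 reads, a fold of 1.13 (interval 0.999 to 1.27) and a log2 ratio of 0.20.

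The order of the members by FPKM differed between the libraries. In the KO the order was Stat3, Stat6, Stat5b, Stat5a, Stat2 and Stat4. There the counting intervals overlapped for the neighbours Stat6 (29.6 to 32.95) and Stat5b (27.7 to 30.6), and for Stat2 (7.03 to 8.54) and Stat4 (6.30 to 7.82). In WT the order was Stat6, Stat3, Stat5b, Stat5a, Stat2 and Stat4, and Stat5a (6.54 to 7.75) overlapped with Stat2 (6.18 to 7.12). Stat6 made up 22.2% of the summed STAT FPKM in the KO and 37.5% in WT. Stat3 made up 32.4% in the KO and 27.3% in WT, Stat5a made up 14.1% in the KO and 8.4% in WT, and Stat5b made up 20.7% in the KO and 17.5% in WT. The 6 members summed to 140.5 FPKM in the KO and 85.03 in WT, 1.65 times as much. The range from the highest to the lowest member was 6.47-fold in the KO and 26.3-fold in WT.

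**Figure D2:**
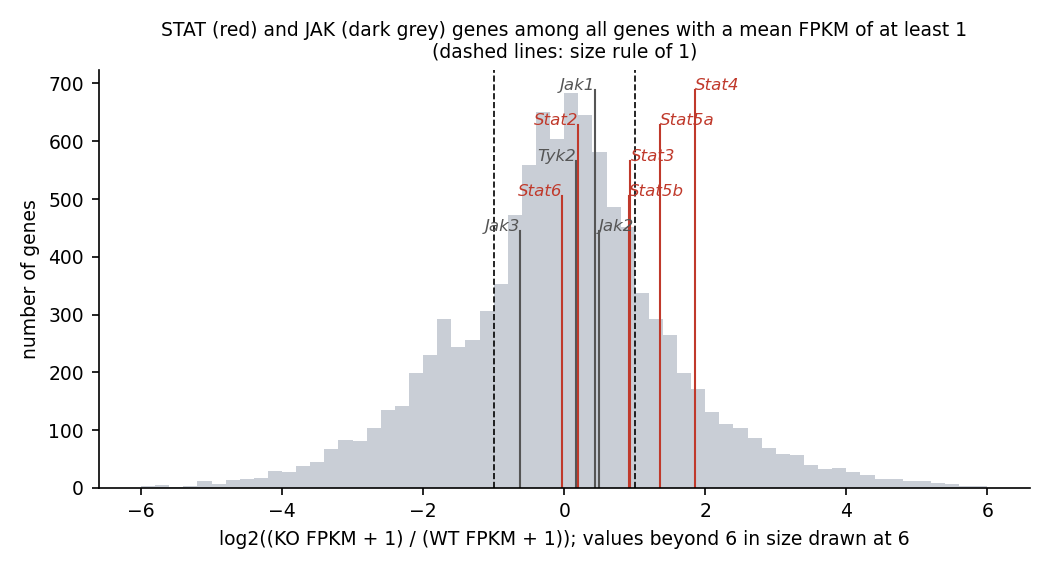
Histogram of the log2 ratio, KO over WT, of the 9955 measured genes (grey), with lines for the 6 STAT genes (red) and the 4 JAK kinases (dark grey) and dashed lines at the threshold of 1 in size. Stat4 at 1.86 and Stat5a at 1.36 lie beyond the right dashed line, and the JAK kinases lie between the dashed lines.

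Genes around the chromosome 11 cluster lay on both sides of 0. Within 200 kb on each side the files held 19 other genes, of which 15 were measured, and 3 rose, 5 fell and 7 did neither. That is 20% risen and 33.3% fallen, beside 21.3% and 23.6% of all genes measured. On one side the histone acetyltransferase gene Kat2a had 9.51 FPKM in the KO and 43.4 in WT, and the RNA sensor gene Dhx58 had 6.53 in the KO and 23.8 in WT. On the other side Atp6v0a1, a vacuolar ATPase subunit, had 5.97 FPKM in the KO and was listed at 0 in WT, while the gamma-tubulin gene Tubg1 had 5.71 in the KO and 50.3 in WT. These genes were named after their values were seen.

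Upstream of the STATs, the JAK kinases stayed between the thresholds, with none of 4 risen or fallen. Of all 9955 genes measured 21.3% rose, 23.6% fell and 5485 did neither, so this count of 4 genes says little by itself. Jak1, which serves most cytokine receptors of T cells, was the most abundant, with 95.3 FPKM in the KO and 70.4 in WT (fold 1.37, interval 1.33 to 1.41). Jak2, which pairs with Tyk2 at the IL-12 receptor, had 4.61 FPKM in the KO and 2.98 in WT (fold 1.60, interval 1.42 to 1.81), and Tyk2 had 8.48 in the KO and 7.47 in WT (fold 1.06, interval 0.936 to 1.21). Jak3, the kinase bound to the common gamma chain, was the member that was lower, with 20.3 FPKM in the KO and 31.8 in WT. Its fold was 0.578 (interval 0.522 to 0.639), and its log2 ratio of -0.63 was short of the threshold. Jak1 and Jak3 each share their locus in the files with another gene. The median log2 ratio of the JAK kinases was 0.30, or -0.01 once the KO was rescaled to the upper quartile, which moved the median of all genes measured to -0.32.

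Cytokine receptor chains moved in both directions. Of 25 listed, 24 were found and 17 measured. Of the 17, 8 rose and 4 fell, 47.1% and 23.5%, beside 21.3% and 23.6% of all genes measured. Their median was 0.28, or -0.04 under the upper-quartile scaling. The chains were grouped after their values were seen by the STAT each is known to feed. In the Stat3 arm Il6ra, Il6st, Il10ra, Il10rb and Il21r rose. Not every listed chain that can feed Stat3 rose. Il27ra, Osmr and Lifr did not pass the threshold, and Il12rb1, placed in the Stat4 arm below, fell. The common gamma chain gene Il2rg, also part of the IL-21 receptor but placed in the Stat5 arm below, did not pass it either. Il27ra, which shares its locus with another gene, had 132.5 FPKM in the KO and 116 in WT, while Osmr (0 reads in the KO, 22 in WT) and Lifr (5 reads in the KO, 3 in WT) had a mean FPKM under 1. Il6ra had 63.1 FPKM in the KO and 22.3 in WT, and Il6st, the shared signal chain gp130, had 6.23 in the KO and 1.95 in WT. Il21r had 33.0 in the KO and 7.51 in WT. Both chains of the IL-10 receptor were almost silent in WT. Il10ra had 16.9 FPKM in the KO on 697 reads and 0.0327 in WT on 3 reads, a ratio of 496 (interval 169 to 2409), and Il10rb had 41.2 in the KO on 1055 reads and 0.785 in WT on 43 reads, a ratio of 52.3 (interval 38.6 to 72.8). Macrophages express the IL-10 receptor, and among the myeloid markers Lyz2 was higher (85.7 FPKM in the KO, 14.3 in WT) while S100a8 and S100a9 were lower, as given above. Their part in the receptor values was not tested.

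Several chains of the Stat4 and Stat5 arms were lower while the STATs themselves were higher. Il12rb1, a chain of the IL-12 receptor, fell to 0.529 FPKM in the KO on 12 reads, against 26.96 in WT on 1405 reads, 54.9-fold lower (interval 31.3 to 106). Il12rb2, whose chain docks Stat4, had 2 reads in the KO and 131 in WT (0.0483 and 1.45 FPKM), a mean FPKM under 1. In the Stat5 arm Il2ra fell to 0.217 FPKM in the KO, against 2.69 in WT, and Il2rb fell to 26.4 in the KO, against 61.2 in WT. Il7r fell to 34.9 FPKM in the KO, against 77.2 in WT, although it is also a naive T cell marker and that list was higher as a group. The common gamma chain gene Il2rg had 320 FPKM in both libraries, a log2 ratio of -0.00.

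Il4ra, the chain that docks Stat6, rose to 29.6 FPKM in the KO, against 4.07 in WT, a fold of 6.83 (interval 6.18 to 7.57), beside a Stat6 level that was close in both. Both chains of the type I interferon receptor, which feeds Stat2, rose. Ifnar1 had 18.1 FPKM in the KO and 7.90 in WT, and Ifnar2 had 71.5 in the KO and 29.4 in WT. Their log2 ratios of 1.10 and 1.26 were the lowest of the 8 receptor chains that rose. Under the upper-quartile scaling 6 of the 17 measured chains rose. Irf9, the DNA-binding partner of Stat2, rose to 108 FPKM in the KO, against 39.1 in WT (fold 2.77, interval 2.64 to 2.91).

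**Figure D3:**
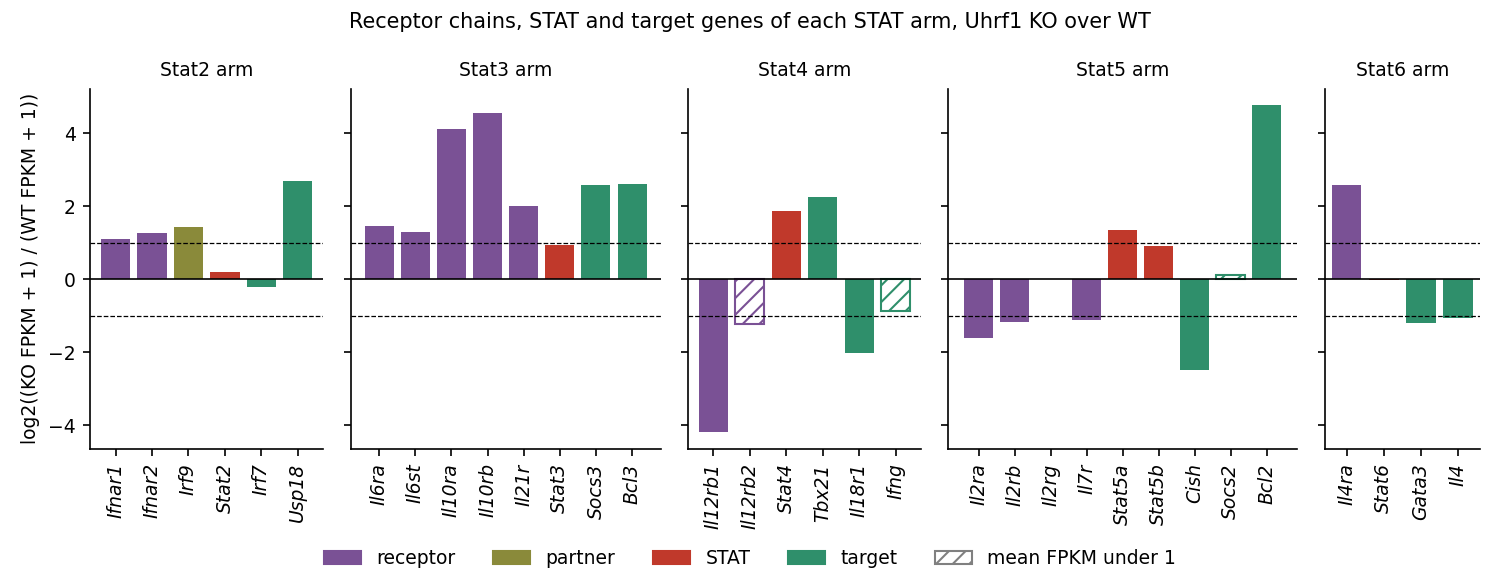
Log2 ratio, KO over WT, of receptor chains, partner, STAT and target genes for each STAT arm, with dashed lines at the threshold of 1 in size and hatched bars for genes with a mean FPKM under 1. Each bar is a single comparison of 2 libraries. The 5 receptor chains drawn for the Stat3 arm (Il6ra, Il6st, Il10ra, Il10rb and Il21r) lie above the upper dashed line. Il2rg, also part of the IL-21 receptor, is drawn in the Stat5 arm at -0.003. Il12rb1 at -4.19 and Il7r at -1.12 lie below the lower line beside higher Stat4 and Stat5a.

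Most brakes of the pathway stayed between the thresholds. Of 15 measured, 3 rose and 2 fell, 20% and 13.3%, beside 21.3% and 23.6% of all genes measured. Their median was -0.01, or 0.48 over those with a mean FPKM of at least 5. Socs3, the inhibitor induced by Stat3, rose to 41.0 FPKM in the KO, against 6.04 in WT (fold 6.36, interval 5.57 to 7.29). Pias4, a SUMO ligase of the PIAS family, rose to 45.3 in the KO, against 6.35 in WT. The third that rose, Ptprc, had 123 FPKM in the KO and 61.0 in WT, a log2 ratio of 1.00 at the threshold itself. Under the upper-quartile scaling, or with 5 in place of 1 added to each FPKM, 2 brakes rose. Cish, the classical Stat5-induced inhibitor, fell to 0.212 FPKM in the KO on 4 reads, against 5.85 in WT on 250 reads, 29.3-fold lower (interval 11.3 to 108). Socs4 fell as well, to 0.0916 in the KO on 5 reads, against 3.99 in WT on 423 reads. Socs1 had 83.9 FPKM in the KO and 46.9 in WT, a log2 ratio of 0.83, and Socs2 was near silent, with 4 reads in the KO and 2 in WT. The phosphatase genes Ptpn6 (389 in the KO, 289 in WT) and Ptpn2 (85.4 in the KO, 61.0 in WT) were below the threshold.

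The windows of Socs3 and Il7r are shown because both hold the palindrome TTCNNNGAA, the general STAT-binding pattern, in genes that moved opposite ways. The Socs3 window lies within RefSeq's extent of the gene, 117966079 to 117970336. Both windows were picked after match and direction were known. They cover the 250 bases before each start, chr11:117969367-117969616 (minus strand) for Socs3 and chr15:9529877-9530126 (minus strand) for Il7r, from RefSeq on GRCm38.p6, 5′ to 3′, with the match in capitals.
Socs3: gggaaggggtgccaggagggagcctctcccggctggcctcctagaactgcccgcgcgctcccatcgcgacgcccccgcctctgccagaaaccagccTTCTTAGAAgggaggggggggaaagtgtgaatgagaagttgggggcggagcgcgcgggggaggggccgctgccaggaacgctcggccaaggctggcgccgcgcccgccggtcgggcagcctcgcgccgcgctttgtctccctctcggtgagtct
Il7r: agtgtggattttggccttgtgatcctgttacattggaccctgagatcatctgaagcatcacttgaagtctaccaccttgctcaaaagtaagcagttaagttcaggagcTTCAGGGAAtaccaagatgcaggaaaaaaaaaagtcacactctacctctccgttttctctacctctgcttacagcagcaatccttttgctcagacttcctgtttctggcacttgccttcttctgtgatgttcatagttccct

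Matches were searched on both strands of these 250-base windows, for TTCNNNGAA, for TTCNNNNGAA, the wider spacing that Stat6 is known to prefer, and for GAAANNGAAA, a core of the interferon-stimulated element bound by Stat2 with Irf9. Matches to different patterns may overlap. None of the 6 STAT genes held TTCNNNGAA in any window, where 8.13% of all 27025 genes did. Of the genes with a window, 1 of 11 brakes (9.09%) and 3 of 19 receptor chains (15.8%) held it, while the Cish window did not. Stat2 held TTCNNNNGAA as TTCCCTAGAA, beginning at position -210 from its start, a pattern found in 6.76% of all genes. GAAANNGAAA stood before 2 of the 6, a pattern found in 3.46% of all genes. In Stat2 it was TTTCAGTTTC at -222, which reads as the pattern on the opposite strand, and in Stat4 it was GAAAGTGAAA at -97, while the window of the other Stat4 start held none. Of 21 genes of the Stat2-Irf9 target list with a window, 7 held it. A match describes letters and does not show binding.

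Target genes of the 5 arms were mixed. These lists come from textbook knowledge, were chosen with earlier results of these data known, share members, and hold genes that other factors also control. Of 15 measured Stat3 targets 7 rose and 6 fell (46.7% and 40%, median 0.77), beside 21.3% and 23.6% of all genes measured. Fos rose to 25.6 FPKM in the KO on 651 reads, against 0.0918 in WT on 5 reads, a ratio of 278 (interval 118 to 858), and Bcl3 had 36.1 in the KO and 5.11 in WT. Maf fell to 1.13 FPKM in the KO, against 46.4 in WT, and Rora fell to 0.280 in the KO, against 10.8 in WT. Both take part in IL-17 programs. Maf is also a gamma-delta T cell marker, and the summed level of that list was 7.17 FPKM in the KO and 177 in WT. Rora shares its locus with another gene.

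Of 18 measured Stat5 targets 6 rose and 3 fell (33.3% and 16.7%), beside 21.3% and 23.6% of all genes measured. Their median was 0.29, or -0.03 under the upper-quartile scaling. Bcl2, which blocks mitochondrial apoptosis, rose to 77.7 FPKM in the KO, against 1.90 in WT. Its scaled count fold was 19.5 (interval 17.8 to 21.4), less than the FPKM ratio of 40.9. The kinase gene Pim1 rose to 8.57 FPKM in the KO, against 2.16 in WT, and Gzmb had 9.17 FPKM in the KO on 181 reads and 0 reads in WT, at least 129-fold higher against a floor of 3 reads in the library. Such a floor takes the other library's reads as exact, and the exact counting interval of this fold begins at 104. Cish and Il2ra, classical Stat5 targets, fell as given above. Of 10 measured Stat4 targets 4 rose and 3 fell (40% and 30%, median 0.73), beside the same shares of all genes. Tbx21, which encodes T-bet, rose to 13.0 FPKM in the KO, against 1.94 in WT, and Ccl5 rose to 53.2 in the KO, against 9.18 in WT. Il18r1 fell to 3.47 in the KO, against 17.1 in WT, and Gadd45g had 0 reads in the KO and 47 in WT. Ifng, the main product of IL-12 signals, had 0 reads in the KO and 39 in WT, at least 6.09-fold lower against the same floor, with a counting interval that begins at 4.725, at a mean FPKM under 1.

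Of 9 measured Stat6 targets 3 rose and 3 fell (33.3% each), beside 21.3% and 23.6% of all genes measured. Their median was 0.22, or -0.11 under the upper-quartile scaling. Gata3 fell to 24.4 FPKM in the KO, against 56.9 in WT, and Il4 fell to 150 in the KO, against 316 in WT. Both are also markers of early iNKT cells, of which 7 of 10 fell and 1 rose. Il4ra rose, as did Ccr8, a chemokine receptor, with 19.8 FPKM in the KO on 246 reads and 0.370 in WT on 10 reads. Of 29 measured Stat2-Irf9 targets 8 rose and 3 fell (27.6% and 10.3%, median 0.48), beside the same shares of all genes. Usp18, which damps the interferon receptor, rose to 81.1 FPKM in the KO, against 11.7 in WT, Mx2 had 8.54 in the KO on 268 reads and 0.101 in WT on 7 reads, and Ifih1 had 9.49 in the KO and 0.824 in WT. Dhx58 fell, and Irf7, the factor that amplifies the response, had 83.1 FPKM in the KO and 95.5 in WT.

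**Figure D4:**
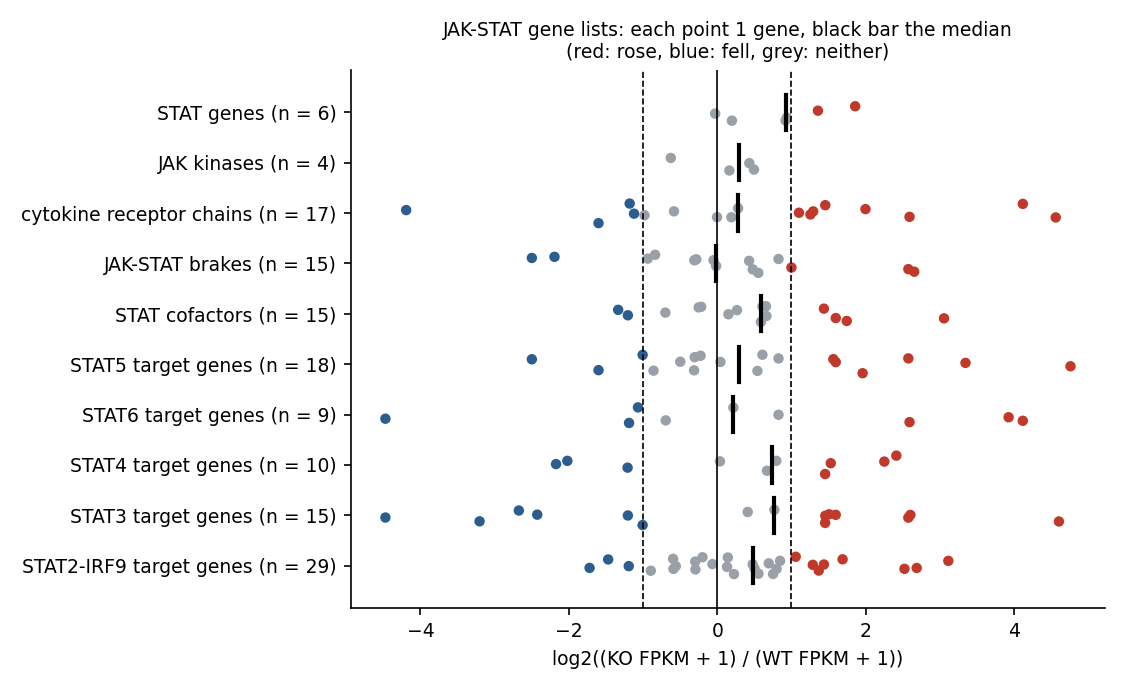
Log2 ratio, KO over WT, of each measured gene in the STAT family, the JAK kinases and 8 related lists, with a black bar at each list's median and dashed lines at the threshold of 1 in size. The STAT genes have a median of 0.93 and no member below -1, while every target list holds genes beyond both dashed lines. Their median is the highest of the lists drawn, but at a mean FPKM of at least 5 it is 0.92, against 1.16 for Stat4 targets and 1.11 for Stat3 targets.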

How the data were processed

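RNA-seq libraries of sorted stage 1 iNKT cells were made with a TruSeq RNA kit after Trizol lysis, per the labels' protocols. The mm10 build, Cufflinks 2.1.1 and TopHat2 2.0.9 are named, per the submitters' processing notes, without their roles, annotation or filters. The authors deposited FPKM values, per the file headers, and a second column headed as a count. That deposited column is a scaled signal, in whole multiples of 1.7 in the KO and 0.799 in WT for 98.8% and 98.3% of nonzero genes (within 0.01 of a read, or 1e-05 of a large value). Dividing by these steps gave reads per gene. No count model was fitted, as fractions remained and each genotype had 1 library.

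A pseudocount of 1 was added to FPKM, and a size rule of 1 on log2 was used. Intervals were Clopper-Pearson for folds and exact Poisson for levels. The depth was 12189861 reads in the KO and 26005836 in WT, so an equal level rests on fewer reads in the KO. Members and gene lists were chosen with earlier results of these data known. Named genes were the STAT and JAK genes, Uhrf1, up to 4 largest changes per list and 27 further pathway genes listed by hand. Names outside that rule, among them Nab2, Il6ra, Il21r, Il27ra, Osmr, Lifr, Ifnar2, Bcl3, Ptprc, the cell type markers and the genes beside the chromosome 11 cluster, were chosen after their values were seen. Other settings (8, and 1 added after the data were seen) are given in the closing section. RefSeq positions are 1-based. The steps were tested on simulated data. Computations used scipy 1.17.1, pandas 2.3.3 and numpy 2.4.6 under Python 3.11.15, and figures matplotlib 3.10.9. A few genes are not reported here.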

Additional observations from a re-analysis of the deposited data

How the results depend on the processing

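Of 162 list counts recomputed under the alternatives, 141 stayed within 1.5 times the reported count. The setting that took 1 row per symbol could change none, since no symbol was repeated among the 16386 genes. Rescaling to a median of 0 moved the median of all genes only from -0.005 to -0.001 and changed no list count. Agreement under either setting therefore says little about stability. With a pseudocount of 5 the counts became 1 STAT gene, Stat5a, and 4 Stat3 targets risen, and 1 brake, 1 cofactor, 1 Stat5 target, 1 Stat4 target and 1 Stat2-Irf9 target fallen. Of all 9955 genes measured 1292 then rose and 1254 fell. At a mean FPKM of at least 5, which leaves out Stat4 by construction, the list counts became 1 STAT gene risen, and 0 brakes, 1 cofactor, 1 Stat5 target, 1 Stat4 target and 3 Stat3 targets fallen. Of all 7012 genes at that level 1424 rose and 1247 fell. With a size rule of 0.5, 4 of 6 STAT genes, 5 of 15 brakes, 8 of 15 cofactors and 14 of 29 Stat2-Irf9 targets rose. Under it 1 of 4 JAK kinases, 4 of 15 brakes and 7 of 29 Stat2-Irf9 targets fell. Of all 9955 genes measured 3332 rose and 3445 fell by that rule. Rescaling to the upper quartile gave 4 fallen brakes and moved the median of all genes to -0.32. The share of calls that rose was then 34.9% (1549 of 9836 genes rose and 2893 fell), against 47.3% as reported (2116 rose and 2354 fell). Under it Stat2 turned to -0.09 and Stat6 was -0.35, while relative to the median of the 9955 genes measured as reported, then at -0.31, they were 0.21 and -0.04. Over all settings run for single members, Stat4 ran from 0.95 to 2.52, Stat5a from 1.03 to 1.46, Stat3 from 0.61 to 0.97 and Stat5b from 0.60 to 0.96. No paired analysis was possible because each genotype has 1 library. Depth limits the folds that rest on few reads, such as Cish with 4 reads in the KO (interval 11.3 to 108) and Il10ra with 3 reads in WT (interval 169 to 2409).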

Other observations

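Cofactors and partners of the STATs, 15 listed and all measured, had 4 risen and 2 fallen, with a median log2 ratio of 0.59. That is 26.7% risen and 13.3% fallen, beside 21.3% and 23.6% of all genes measured. The PIM kinase genes, which several STATs are known to induce, were all higher. Pim3 rose to 30.2 FPKM in the KO, against 2.75 in WT, Pim1 rose to 8.57 in the KO, against 2.16 in WT, and Pim2 had 22.4 in the KO and 14.3 in WT, short of the threshold. Nfkbiz, an atypical IkB protein gene, rose to 18.9 FPKM in the KO, against 4.92 in WT. Nmi, which encodes a protein that binds STATs, fell to 16.6 in the KO, against 43.3 in WT, and Hif1a fell to 2.34 in the KO, against 6.70 in WT. The coactivator genes Crebbp (24.0 in the KO, 19.8 in WT) and Ep300 (2.92 in the KO, 3.67 in WT) were below the threshold. Nmi, Hif1a, Pim2, Crebbp and Ep300 were named after their values were seen.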
